A study of Mus musculus with 12 samples.

Results

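The amino acid transporters described here are the genes of solute carrier (Slc) families 1, 3, 6, 7, 36, 38 and 43, taken by gene symbol from the deposited expression values. These families held 60 of the 45706 genes listed, and 40 of them passed the filter on low values, among 18909 genes tested in all. RNA was sequenced from BN1 cells, an immortalized murine hepatoblastoma (HB) line, in 12 libraries of 4 groups with 3 replicates each. Family 6 also holds carriers of creatine and neurotransmitters, which were kept because the choice rested on the symbol alone, and members whose symbol ends in a letter, such as Slc6a20a, fell outside it.

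All groups had a genotype given as Cdkn2a KO, in the FVB/N strain. For this locus the study describes Crispr-made mutations and partial inactivation, with mutant protein still detected in BN1 cells. The cells had the oncogenic mutants of the tumor that gave rise to the line, a truncated β-catenin (B) and a missense mutant of NRF2 (N). They also carried EGFP under the control of the Tie2/Tek promoter, which is active mainly in endothelial cells, and the stable transfectants had been selected in G418 and pooled. UN cells were unsorted and normoxic (21% oxygen). UH cells were unsorted and exposed to hypoxia (1% oxygen) for 2 days. SN cells descended from the cells with the highest EGFP after 2 days of hypoxia, isolated by fluorescence-activated cell sorting and then expanded for about 10 days in normoxia. SH cells were SN cells returned to 1% oxygen for 2 days. All groups thus came from 1 cell line, and the study calls the libraries of a group independent replicas without saying whether they were grown as separate cultures. If they were not, p-values measure only the spread between these libraries, which may then be technical.

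Amino acids cannot cross membranes unaided, and each transporter family couples their passage to a different driving force: sodium or proton gradients, exchange for another amino acid, or diffusion alone. Family 3 proteins are heavy chains that carry no substrate themselves but bring light chains of family 7 to the cell surface. In the liver these carriers supply glutamine, alanine and cationic amino acids for urea and glucose synthesis, and in tumors the exchangers of large neutral amino acids, glutamine and cystine are known for feeding protein synthesis, mTORC1 signaling and glutathione. Some members are known targets of ATF4, the transcription factor of the amino acid response, of NRF2 or of the hypoxia-inducible factors.

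Levels are given as TPM (transcripts per 1000000), which correct for transcript length and can therefore be compared between genes. For the comparisons log2(TPM + 1) was fitted with limma in 1 model of all 12 libraries. Calls required more than a 2-fold difference together with an adjusted p (Benjamini-Hochberg) below 0.05. The log2 fold changes below are on that scale, with their standard errors after the ± sign, and the added 1 makes them smaller for genes of low level. Sequencing depth cannot be read from TPM, so no counting error is given, and a value of 0 means that the gene was listed at 0. Mitochondrially encoded transcripts took 6.10%, 2.11%, 8.10% and 3.43% of the TPM on average in UN, UH, SN and SH cells, and replicates correlated with their group mates at r = 0.980 to 0.993 across genes, lowest for UN replicate 1. That library also differed from the other UN replicates in Slc43a3, Slc1a6 and Slc7a10, as given below. Of 8 hepatocyte markers 4, 2, 1 and 1 reached a mean of 1 TPM in UN, UH, SN and SH cells. Alb did not exceed 4.23 TPM in any library. Trf, the 1 marker that reached it in sorted cells, went the other way, at 2.17, 4.50, 47.2 and 46.5 TPM in the same order. The list summed to 10.4 to 20.1 TPM in UN and 4.83 to 11.2 in UH libraries. In sorted libraries, where Trf carried the sum, it was 39.8 to 61.8 in SN and 44.9 to 49.8 in SH. Of 7 endothelial markers Tek alone reached a mean of 1 TPM, in sorted cells, at 2.49 TPM in SN and 3.04 in SH. Fibroblast and stellate cell markers (Col1a1, Col1a2, Col3a1, Pdgfra, Pdgfrb, Dcn, Lum) summed to 1013 to 4314 TPM in UN, 4546 to 6806 in UH, 165 to 185 in SN and 41.0 to 65.3 in SH libraries, but did not move as one. The collagens carried the sum of unsorted cells, where mean Col1a1 went with hypoxia from 704 to 3051 TPM while Dcn went from 172 to 53.8, Pdgfra from 142 to 28.5 and Pdgfrb from 44.7 to 15.2. The collagens and Pdgfra did not exceed 26.3 TPM in any sorted library, whereas Pdgfrb was at 43.8 and Dcn at 119 TPM in SN cells. The UN library with the highest sum was replicate 1, with Col3a1 at 1960 TPM against 222 and 173, Dcn at 349 against 86.2 and 81.3 and the hepatocyte factor Hnf4a at 1.70 against 4.86 and 4.98. The part of these markers in the transporter differences was not tested, and in bulk RNA fewer cells of a kind and less RNA per cell cannot be told apart.

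Cells expressed 32 of the 60 transporters at a mean of at least 1 TPM in at least 1 group. Both unsorted groups had 31 such genes, against 21 for SN and 25 for SH, and 21 transporters reached 1 TPM in all 4 groups. A mean of at least 10 TPM was reached by 18, 15, 11 and 13 transporters in UN, UH, SN and SH cells. The 20 members that were not tested stayed at or below 0.365 TPM in every library, and 1 of them, Slc7a12, was listed at 0 throughout. The expressed members made a short list of very abundant carriers and a long tail. The 4 highest by mean over the 12 libraries were Slc3a2, Slc38a10, Slc6a6 and Slc7a5. In each library these 4 held 49.1% to 69.3% of the summed TPM of all 60.

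**Figure D1:**
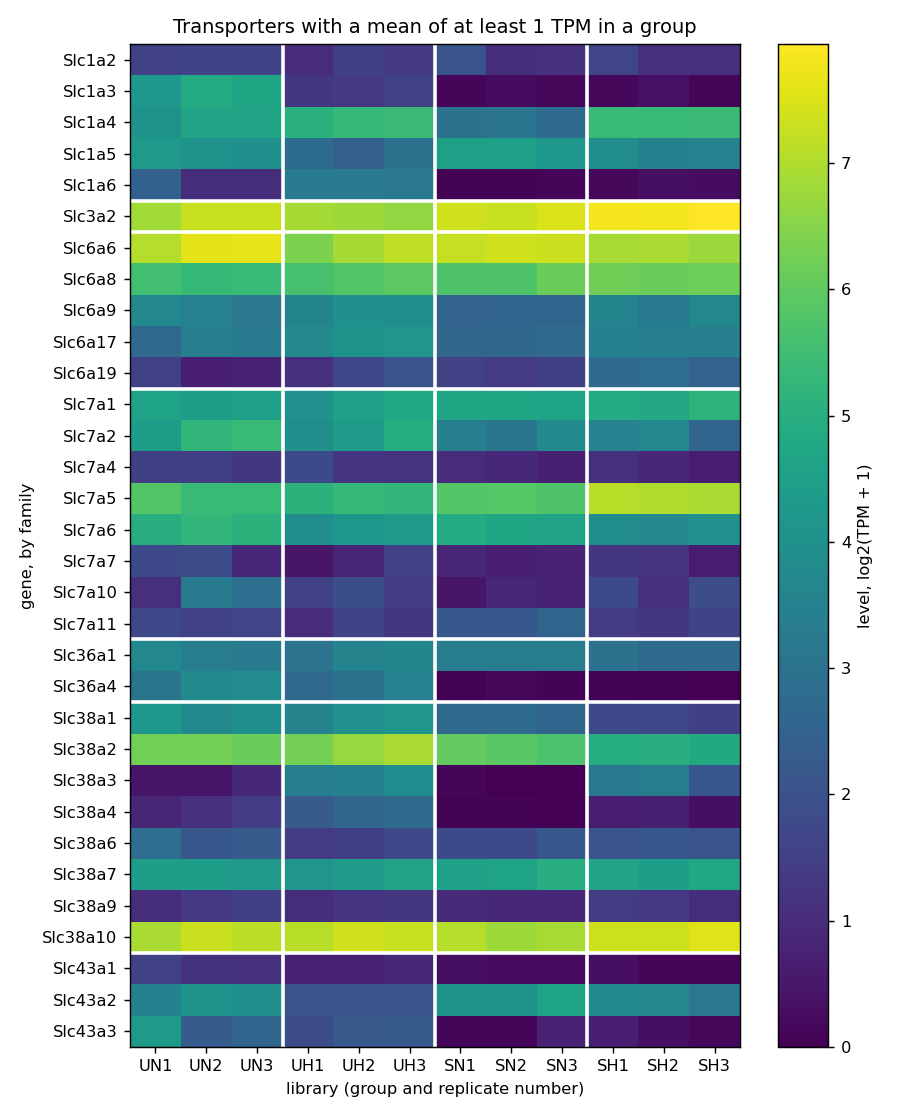
Level of the 32 transporters with a mean of at least 1 TPM in a group, as log2(TPM + 1) on the color scale, with genes grouped by family on the vertical axis and the 12 libraries (group and replicate number) on the horizontal axis. Slc3a2, Slc38a10, Slc6a6, Slc7a5 and Slc38a2 are bright in all libraries, and Slc1a3, Slc36a4 and Slc38a4 are dark in both sorted groups.

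By mean over the 12 libraries the order of the 10 highest was Slc3a2, Slc38a10, Slc6a6, Slc7a5, Slc38a2, Slc6a8, Slc1a4, Slc7a1, Slc7a6 and Slc38a7. Slc38a10, a broadly expressed member of the sodium-coupled neutral family, was at 139 ± 16.9 TPM in UN, 151 ± 13.8 in UH, 119 ± 11.7 in SN and 169.6 ± 13.6 in SH cells (mean ± SD, n = 3). Slc6a6, the taurine carrier, was at 177 ± 39.0, 114 ± 31.2, 158 ± 6.08 and 115 ± 6.91 TPM in the same order. Neither was called in any comparison, and for both genes the SH and SN libraries were the 1 pair of groups compared that did not overlap. Slc6a8, which carries creatine, was at 41.5 ± 3.38, 54.4 ± 6.23, 58.4 ± 10.4 and 71.5 ± 2.61 TPM. Slc7a1, the main carrier of arginine and lysine in most cells, was at 21.8 ± 1.36, 20.9 ± 5.47, 24.5 ± 0.920 and 29.8 ± 3.87 TPM, and Slc38a7, a lysosomal exporter of glutamine, at 19.7 ± 1.22, 19.9 ± 2.96, 25.2 ± 4.29 and 23.4 ± 2.33 TPM. None of these 5 abundant carriers differed by more than 2-fold between groups.

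The sum of all 60 members was 892 ± 76.7 TPM in UN, 798 ± 105 in UH, 786 ± 23.7 in SN and 941 ± 17.1 in SH cells (mean ± SD, n = 3). By family, Slc38 genes held the largest sum in UN, UH and SH cells, at 255, 305 and 237 TPM, and Slc6 genes in SN cells, at 229 TPM against 212 TPM for Slc38. Slc3 genes, nearly all of it Slc3a2, were at 109.5 TPM in UH cells and 232 TPM in SH cells. Slc1 genes were lowest in SN cells, at 29.2 ± 3.67 TPM against 65.4 ± 5.97 in UN cells. Family sums were not tested.

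The first question was which transporters responded to hypoxia, in unsorted cells (UH vs UN) and in sorted cells (SH vs SN), 2 comparisons that share no library. In unsorted cells 3 of the 40 tested transporters rose and 3 fell, against 5.46% of all genes called higher and 11.8% called lower. The risers were Slc38a3, Slc1a6 and Slc38a4, and the fallers were Slc1a3, Slc43a2 and Slc1a5. In sorted cells 4 rose (Slc38a3, Slc1a4, Slc7a5 and Slc6a19) and 1 fell (Slc38a1), against 7.47% and 5% of all genes. The shares of transporters were 7.5% and 7.5% in unsorted cells and 10% and 2.5% in sorted cells, near those of all genes. The median log2 fold change of the 40 was −0.11 in unsorted cells, with −0.19 for all genes, and 0.11 in sorted cells, with 0.03 for all genes.

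Scaling by the median of ratios between libraries, in place of the fixed TPM sum, moved the median of all genes from −0.19 to 0.00 in UH vs UN, from 0.17 to 0.03 in SH vs UH and from 0.25 to 0.02 in the difference between the responses. Under that scaling 5 transporters rose and 3 fell in UH vs UN. The 2 additional genes were Slc1a4, with a log2 fold change of 1.17, and Slc6a17, a neutral amino acid carrier known from synaptic vesicles, with 1.20, a gene named here after its values were seen. With a pseudocount of 0.1, which enlarges the changes of low genes, 4 rose and 7 fell in unsorted cells and 8 rose and 3 fell in sorted cells.

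**Figure D2:**
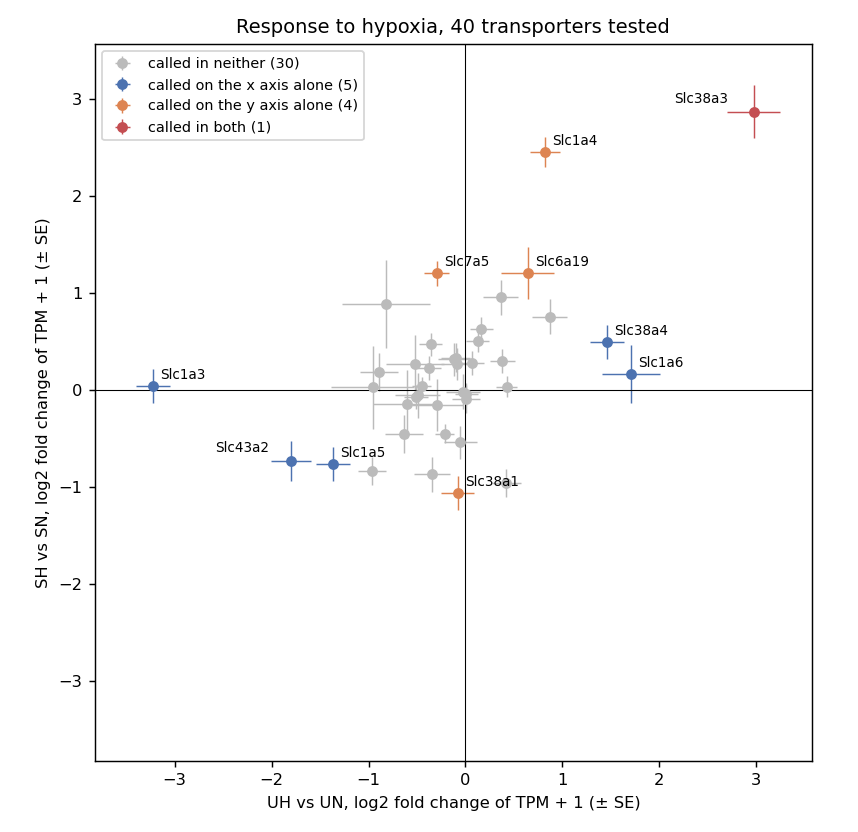
Log2 fold change of TPM + 1 in hypoxia for the 40 transporters tested, in unsorted cells on the horizontal axis and in sorted cells on the vertical axis, with bars of ± SE. Slc38a3 is the 1 gene called in both, 5 were called in unsorted cells alone, 4 in sorted cells alone and 30 in neither.

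The second question was how cells that had been sorted for EGFP differed from unsorted cells, in normoxia (SN vs UN) and in hypoxia (SH vs UH), again without a shared library. Because SH cells derived from SN cells, any trait of that sorted population enters both comparisons. Sorted cells also had an earlier hypoxia of 2 days and about 10 days of expansion, which cannot be told apart from the sort. SH cells were thus in a second hypoxia and UH cells in a first. In normoxia 10 of 40 transporters were lower in sorted cells and 0 were higher, against 7.57% and 3.2% of all genes. At an unadjusted p under 0.05 in limma, 5 were higher and 23 lower, and at an adjusted p under 0.05 without the fold threshold 2 were higher, Slc6a8 with 0.47 and Slc7a11 with 0.64 on the log2 scale. None of the 18 alternative settings called a transporter higher in SN cells, and with a pseudocount of 0.1 the number lower was 17. In hypoxia 8 were lower in sorted cells and 4 higher, against 5.35% and 7.65% of all genes. The share called lower was 25% in normoxia and 20% in hypoxia, thus above the share of all genes in both, and the median of the 40 was −0.38 in normoxia, with −0.06 for all genes, and −0.03 in hypoxia, with 0.17 for all genes.

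Of the transporters called lower in sorted cells, 7 were called in both comparisons: Slc1a3, Slc1a6, Slc7a2, Slc36a4, Slc38a1, Slc38a4 and Slc43a3. Slc1a4, Slc7a10 and Slc43a1 were called lower in normoxia but not in hypoxia, and Slc38a2 in hypoxia but not in normoxia. For Slc7a10 and Slc43a1 the difference between the responses did not pass the test (adjusted p = 0.0767 and 0.0947 in limma). Slc7a5, Slc3a2, Slc43a2 and Slc6a19 were called higher in sorted cells in hypoxia and not in normoxia. Under median-of-ratios scaling 2 in place of 4 transporters were higher in SH vs UH, with 8 still called lower. The difference between the hypoxia responses of sorted and unsorted cells, (SH − SN) − (UH − UN), was called positive for 5 transporters and negative for 2, against 8.08% and 2.18% of all genes, and under median-of-ratios scaling for 3 and 4. The median difference of the 40 was 0.41, with 0.25 for all genes.

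**Figure D3:**
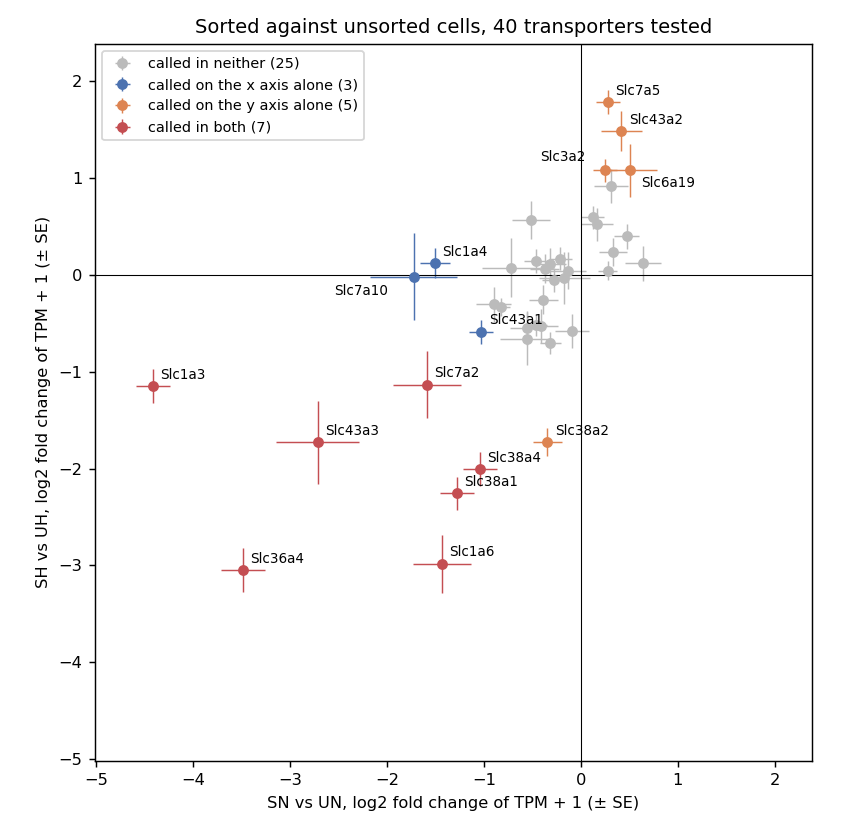
Log2 fold change of TPM + 1 in sorted against unsorted cells for the 40 transporters tested, in normoxia on the horizontal axis and in hypoxia on the vertical axis, with bars of ± SE. The 7 genes called in both lie below 0 on both axes, 3 were called in normoxia alone, 5 in hypoxia alone and 25 in neither.

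Slc7a5 (LAT1; chr8:121881150-121907694, minus strand), the light chain that exchanges glutamine for leucine and other large neutral amino acids, rose in hypoxia in sorted cells. Its levels were 56.0, 41.0 and 39.5 TPM in UN, 33.2, 38.9 and 37.2 in UH, 55.1, 56.3 and 52.5 in SN and 135, 126 and 122 in SH. All SH libraries lay far above the 9 others, and UN and SN levels overlapped. Slc7a5 rose 2.33-fold from SN to SH cells by mean TPM (log2 1.21 ± 0.13, adjusted p = 2.09e-05), whereas UH vs UN gave −0.30 ± 0.13, adjusted p = 0.0703. The responses differed by 1.50 ± 0.18, adjusted p = 0.000234, and SH cells exceeded UH cells 3.50-fold (log2 1.78 ± 0.13, adjusted p = 8.63e-07).

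Its heavy chain Slc3a2 (CD98; chr19:8706882-8723369, minus strand) had the highest mean level over the 12 libraries. It was at 115, 154 and 155 TPM in UN, 117, 109 and 101 in UH, 164, 155 and 181 in SN and 225, 223 and 245 in SH libraries. SH levels were again the highest with no overlap, and SH exceeded UH cells by 1.08 ± 0.12, adjusted p = 3.23e-05 on the log2 scale, a call that median-of-ratios scaling brought below the fold threshold (0.86). The differences of 0.47 ± 0.12, adjusted p = 0.00838 in SH vs SN and −0.36 ± 0.12, adjusted p = 0.0291 in UH vs UN did not reach a 2-fold change. Under median-of-ratios scaling the latter was −0.005 (adjusted p = 0.993 in limma). Slc3a1, the heavy chain of the cystine carrier of the kidney, did not exceed 0.631 TPM.

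The 6 known light chains of Slc3a2 (Slc7a5, Slc7a6, Slc7a7, Slc7a8, Slc7a10 and Slc7a11) summed to 89.0 ± 5.28 TPM in UN, 58.6 ± 6.61 in UH, 85.5 ± 3.60 in SN and 146 ± 6.83 in SH cells (mean ± SD, n = 3). Slc7a5 made up 51.0% ± 8.67 of that sum in UN, 62.3% ± 2.97 in UH, 63.9% ± 1.56 in SN and 87.1% ± 1.46 in SH cells. Slc3a2 transcripts per unit of summed light chains ranged from 1.25 to 2.30 over the libraries, with means of 1.60, 1.89, 1.96 and 1.59 in UN, UH, SN and SH cells. The share of Slc7a5 was thus highest in SH cells, without overlap. The ratio of heavy to light chain transcripts was lower in every SH than in every SN library (at most 1.72 against at least 1.80), and overlapped in the other pairs of groups compared.

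**Figure D4:**
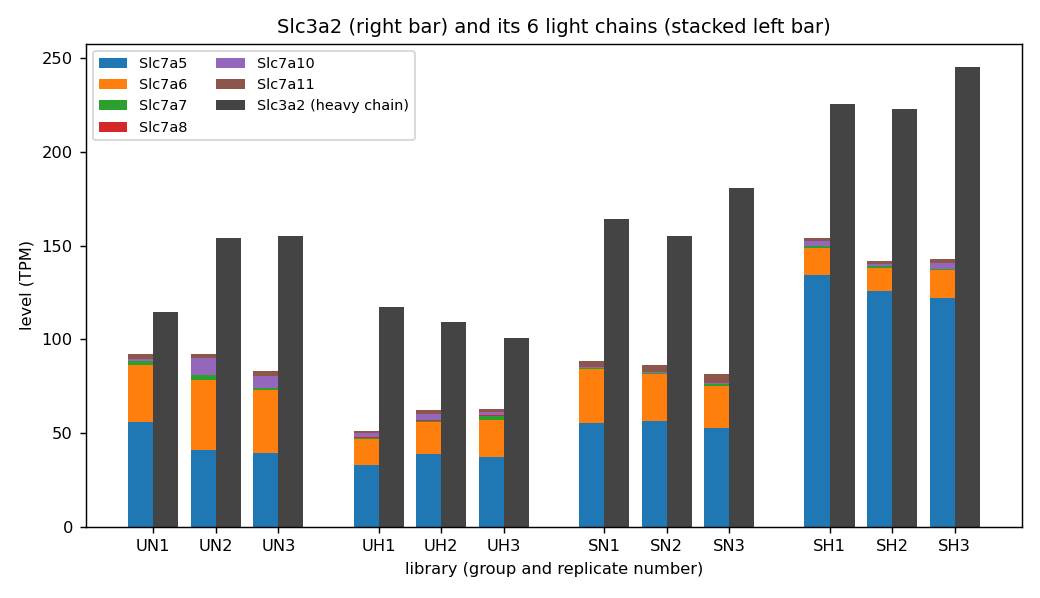
Level in TPM of Slc3a2 (right bar of each pair) and of its 6 light chains (stacked left bar) in the 12 libraries, named by group and replicate number. Slc7a5 makes up 85.6% to 88.5% of the light chains in the SH libraries and 44.5% to 65.2% in all others.

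Among the other light chains, Slc7a6 (y+LAT2), which exchanges cationic for neutral amino acids, was at 30.2, 37.4 and 33.7 TPM in UN, 13.8, 16.9 and 20.0 in UH, 28.9, 25.0 and 22.8 in SN and 14.1, 12.4 and 15.1 in SH libraries. Hypoxic libraries lay below normoxic ones without overlap in both kinds of cell, by −0.97 ± 0.15, adjusted p = 0.000224 in unsorted and −0.83 ± 0.15, adjusted p = 0.000835 in sorted cells, short of the 2-fold threshold. Slc7a10 (Asc-1), a carrier of small neutral amino acids including serine, was at 1.16, 8.84 and 6.47 TPM in UN, 1.94, 2.78 and 1.61 in UH, 0.396, 0.829 and 0.716 in SN and 2.43, 1.18 and 2.71 in SH libraries and was lower in SN than in UN cells (−1.73 ± 0.45, adjusted p = 0.0114). UN replicate 1 was far below the other UN libraries, and without it SN vs UN came to −2.39. UH vs UN then passed the threshold as well, at −1.48 (adjusted p = 0.000737) against −0.82 ± 0.45, adjusted p = 0.163 with it, and so did the difference between the responses, at 2.37 (adjusted p = 0.000634) against 1.71 ± 0.64, adjusted p = 0.0767.

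Slc7a11 (xCT; chr3:49892526-50443614, minus strand) imports cystine for glutathione synthesis and is a well-known NRF2 and ATF4 target. Its level was low in these NRF2-mutant cells, at 2.32, 1.99 and 2.17 TPM in UN, 1.02, 2.10 and 1.45 in UH, 3.45, 3.58 and 4.84 in SN and 1.61, 1.43 and 2.09 in SH libraries. SN libraries were above all others. The differences were 0.64 ± 0.18, adjusted p = 0.0184 in SN vs UN and −0.87 ± 0.18, adjusted p = 0.00273 in SH vs SN, both under 2-fold on this scale. By mean TPM the latter was 2.31-fold, and with a pseudocount of 0.1 it was called lower (−1.16, adjusted p = 0.00459). UH vs UN gave −0.35 ± 0.18, adjusted p = 0.147.

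Slc1a4 (ASCT1; chr11:20302180-20332713, minus strand), a sodium-dependent exchanger of alanine, serine and cysteine, had the second largest rise of a transporter in hypoxic sorted cells. It was at 16.0, 23.8 and 23.8 TPM in UN, 32.7, 39.3 and 41.6 in UH, 6.78, 7.41 and 5.93 in SN and 40.9, 40.4 and 42.0 in SH libraries. Normoxic libraries lay below hypoxic ones without overlap, SN libraries were the lowest, and UH and SH levels overlapped. Slc1a4 rose 6.13-fold from SN to SH cells (log2 2.45 ± 0.16, adjusted p = 6.05e-07). In unsorted cells the difference was 0.82 ± 0.16, adjusted p = 0.00103, under the 2-fold threshold, and the responses differed by 1.63 ± 0.22, adjusted p = 0.000544. SN cells were 3.16-fold below UN cells (log2 −1.51 ± 0.16, adjusted p = 2.34e-05), and SH vs UH gave 0.12 ± 0.16, adjusted p = 0.555.

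Promoter sequences (250 bases before to 50 bases after a start site, RefSeq, GRCm38.p6) were found for 42 of the 60 transporters, in 63 windows, and were searched on both strands. The core of the element bound by ATF4 with C/EBP factors, TGATGNAA, was in 4 of the 63 windows (6.35%) and in 3.97% of all 32851 windows of the table. It occurred in Slc1a4, Slc7a11 and Slc7a7. The cores of the hypoxia response element, ACGTG and GCGTG, were in 36 of the 63 windows (57.1%) and in 43.8% of all windows, and the core of the antioxidant response element bound by NRF2, TGACNNNGC, was in 11 (17.5%) and 12.4%. Slc38a3 and Slc7a5 had no entry. The windows of Slc1a4 (chr11:20332664-20332963, minus strand) and Slc7a11 (chr3:50443564-50443863, minus strand) are printed 5′ to 3′ in the direction of the gene, because both hold the ATF4 core while the level of the former rose in hypoxic sorted cells and that of the latter was lower there, though under the 2-fold threshold. They were chosen after those values were seen, and capitals mark TGATGNAA and the hypoxia core letters on either strand.
Slc1a4: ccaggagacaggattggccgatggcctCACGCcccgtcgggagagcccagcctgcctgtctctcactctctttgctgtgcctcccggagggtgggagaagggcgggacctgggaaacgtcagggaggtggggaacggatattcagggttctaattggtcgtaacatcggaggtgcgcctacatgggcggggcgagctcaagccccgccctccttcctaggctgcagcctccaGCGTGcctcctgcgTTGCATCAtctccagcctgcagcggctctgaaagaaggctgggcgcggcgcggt
Slc7a11: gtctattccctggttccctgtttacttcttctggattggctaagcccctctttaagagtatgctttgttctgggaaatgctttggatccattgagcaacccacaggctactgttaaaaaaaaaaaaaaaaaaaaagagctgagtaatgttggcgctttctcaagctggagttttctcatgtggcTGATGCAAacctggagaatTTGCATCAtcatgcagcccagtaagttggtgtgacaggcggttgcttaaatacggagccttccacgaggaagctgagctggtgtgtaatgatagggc
The Slc1a4 window holds the ATF4 core on the opposite strand, from position −4 relative to the start site, and GCGTG at −223 on the opposite strand and at −18 on the gene's strand. The Slc7a11 window holds the ATF4 core at −66 and, on the opposite strand, at −47, and no hypoxia core. These matches describe letters, not occupied sites.

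Slc1a5 (ASCT2; chr7:16781340-16798274, plus strand), the sodium-dependent glutamine exchanger, moved the other way from Slc1a4. It was at 18.7, 15.5 and 14.8 TPM in UN, 5.96, 4.46 and 6.93 in UH, 22.1, 21.5 and 17.8 in SN and 14.3, 10.4 and 10.6 in SH libraries. Hypoxic levels were below normoxic ones without overlap. Slc1a5 fell 2.82-fold in unsorted cells (log2 −1.36 ± 0.18, adjusted p = 6.27e-05), whereas the difference in sorted cells was −0.76 ± 0.18, adjusted p = 0.00458. The responses differed by 0.60 ± 0.25, adjusted p = 0.102, which did not pass the test.

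Of the glutamate carriers of family 1, which take up glutamate with sodium and are best known from astrocytes and neurons, Slc1a3 (GLAST; chr15:8634124-8710764, minus strand) had the largest fall of any transporter in hypoxia. It was at 17.7, 28.0 and 25.1 TPM in UN, 1.38, 1.49 and 1.94 in UH, 0.0745, 0.194 and 0.135 in SN and 0.123, 0.320 and 0.0775 in SH libraries. UN libraries stood far above all others, and the sorted groups were near 0 and overlapped. Slc1a3 fell 14.7-fold in unsorted hypoxic cells (log2 −3.22 ± 0.18, adjusted p = 1.23e-07) and was lower in sorted cells in normoxia (−4.42 ± 0.18, adjusted p = 1.13e-08) and in hypoxia (−1.15 ± 0.18, adjusted p = 0.000342). In sorted cells hypoxia gave 0.05 ± 0.18, adjusted p = 0.883, from a mean of 0.135 TPM, and the responses differed by 3.27 ± 0.25, adjusted p = 2.07e-05. Of 5 neuron and astrocyte markers none reached a mean of 1 TPM in a group, and Aqp4 was listed at 0 in all libraries.

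Slc1a6 (EAAT4; chr10:78780496-78814765, plus strand), another glutamate carrier, showed the opposite response in unsorted cells. It was at 4.50, 1.07 and 1.07 TPM in UN, 8.74, 8.38 and 8.00 in UH, 0.0309, 0.0573 and 0.0860 in SN and 0.127, 0.247 and 0.190 in SH libraries. UH libraries were the highest without overlap, and no sorted library exceeded 0.247 TPM. Slc1a6 rose in UH vs UN (1.71 ± 0.30, adjusted p = 0.000608) and was lower in SN vs UN (−1.44 ± 0.30, adjusted p = 0.00315) and in SH vs UH (−2.98 ± 0.30, adjusted p = 1.37e-05). UN replicate 1 lay above the other UN libraries, and without it SN vs UN came to −0.97, just under the threshold. The responses differed by −1.54 ± 0.42, adjusted p = 0.0237, a call that was lost with a pseudocount of 0.1 (−1.34, adjusted p = 0.167), without UN replicate 2 or 3 (both −1.31, adjusted p = 0.0584), without SH replicate 1 (−1.51, adjusted p = 0.0529) or without SN replicate 3 (−1.52, adjusted p = 0.0501). By mean TPM the change was 3.79-fold in unsorted and 3.24-fold in sorted cells, the latter from 0.0581 TPM, so the called difference depends on the added 1.

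The sodium-coupled neutral carriers of family 38 held Slc38a3, the 1 transporter called higher with hypoxia in both kinds of cell. This carrier (SNAT3; chr9:107650634-107669530, minus strand), which moves glutamine in either direction and is known from perivenous hepatocytes, was at 0.392, 0.362 and 0.856 TPM in UN, 9.45, 10.2 and 13.5 in UH, 0.0779, 0.0161 and 0 in SN and 8.27, 9.18 and 3.57 in SH libraries. Every hypoxic library was above every normoxic one. It rose by 2.97 ± 0.27, adjusted p = 5.09e-06 in unsorted cells, 20.6-fold by mean TPM, and by 2.87 ± 0.27, adjusted p = 1.09e-05 in sorted cells, where 1 SN library was listed at 0. The responses differed by −0.10 ± 0.39, adjusted p = 0.881 on log2(TPM + 1). The added 1 makes the change from SN levels of at most 0.0779 TPM smaller, so this value does not show that the responses were alike. SN libraries lay below UN libraries without overlap (−0.56 ± 0.27, adjusted p = 0.14 in limma), a difference called with a pseudocount of 0.1 (−2.24, adjusted p = 0.00116).

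Slc38a2 (SNAT2; chr15:96687392-96699730, minus strand), the carrier of alanine, serine and glutamine that cells induce when amino acids are scarce, responded differently in the sorted and the unsorted cells. It was at 75.4, 74.6 and 71.2 TPM in UN, 77.5, 103 and 122 in UH, 64.4, 59.0 and 50.8 in SN and 29.1, 31.6 and 27.3 in SH libraries. UH libraries lay above and SH libraries below all others. The difference was 0.42 ± 0.15, adjusted p = 0.0341 in UH vs UN and −0.96 ± 0.15, adjusted p = 0.00033 in SH vs SN, neither past the 2-fold threshold, and the difference between the responses was called (−1.38 ± 0.21, adjusted p = 0.00109). SH cells were 3.44-fold below UH cells (log2 −1.73 ± 0.15, adjusted p = 4e-06).

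Its neighbour Slc38a1 (SNAT1; chr15:96571418-96642913, minus strand), a related glutamine carrier 44.5 kb away, was at 17.7, 13.0 and 14.4 TPM in UN, 10.9, 15.1 and 16.9 in UH, 5.76, 5.85 and 5.08 in SN and 2.37, 2.27 and 1.83 in SH libraries. Unsorted groups overlapped, and both sorted groups lay below them. Slc38a1 was lower in SN vs UN (−1.28 ± 0.17, adjusted p = 0.00019) and in SH vs UH (−2.26 ± 0.17, adjusted p = 1.86e-06), and fell further in SH vs SN (−1.06 ± 0.17, adjusted p = 0.000532). Without SH replicate 3 that last change was −0.98, just under the threshold.

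Slc38a4 (SNAT4; chr15:96994820-97055956, minus strand), a carrier of neutral and cationic amino acids that is typical of liver, lies in the same cluster. It was at 0.789, 1.09 and 1.65 TPM in UN, 3.91, 5.15 and 5.77 in UH, 0.0632, 0.0490 and 0.0110 in SN and 0.556, 0.618 and 0.264 in SH libraries. The 4 groups did not overlap. Slc38a4 rose in UH vs UN (1.46 ± 0.18, adjusted p = 3.84e-05), was lower in SH vs UH (−2.00 ± 0.18, adjusted p = 4.77e-06) and in SN vs UN (−1.05 ± 0.18, adjusted p = 0.000769), and gave 0.50 ± 0.18, adjusted p = 0.0391 in SH vs SN. That last difference was 11.7-fold by mean TPM at levels under 1 TPM, and it was called with a pseudocount of 0.1 (2.00, adjusted p = 0.000897). The SN vs UN call was lost without UN replicate 3 (−0.90) and under median-of-ratios scaling (−0.96). Slc38a1, Slc38a2 and Slc38a4, all within chr15:96571418-97055956, differed by −0.08, 0.42 and 1.46 in UH vs UN and were all lower in SH than in UH cells.

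Slc38a6, a less studied member of the family, was at 6.09, 3.57 and 3.79 TPM in UN, 1.61, 1.75 and 2.37 in UH, 2.44, 2.41 and 3.53 in SN and 3.30, 3.51 and 3.07 in SH libraries. UH libraries were the lowest without overlap, and SN and SH libraries overlapped. No pairwise comparison was called, whereas the difference between the responses was called (1.08 ± 0.28, adjusted p = 0.0177), except without UN replicate 1 (0.88) and under median-of-ratios scaling (0.84).

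**Figure D5:**
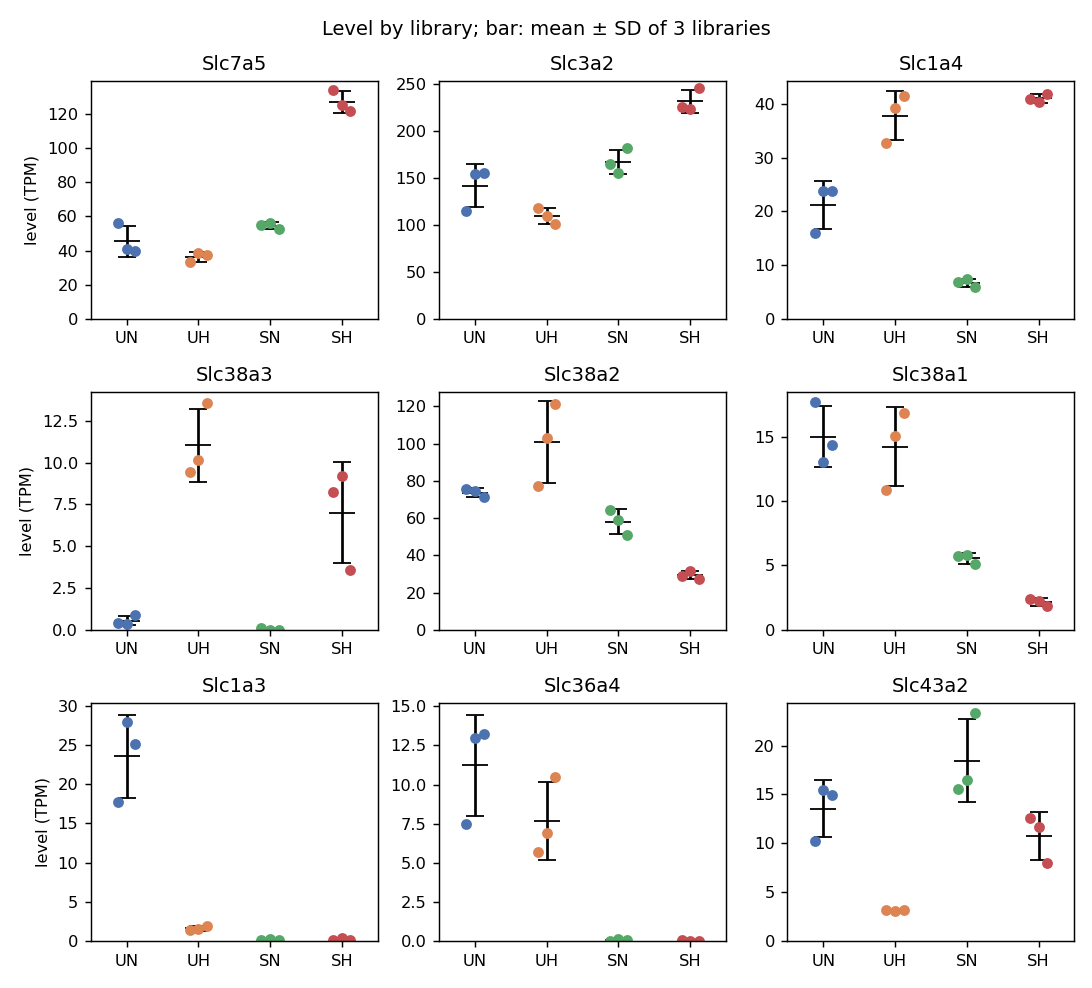
Level in TPM of 9 transporters by group, with a point for each library and bars for the mean ± SD of 3 libraries, each panel on its own linear axis from 0. Slc7a5 and Slc3a2 are highest in SH, Slc38a3 is near 0 in both normoxic groups, and Slc1a3 and Slc36a4 are near 0 in both sorted groups.

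The facilitative carriers of family 43 move large neutral amino acids by diffusion, apart from Slc43a3, which carries purine nucleobases. Slc43a2 (LAT4; chr11:75531694-75577575, plus strand) was at 10.2, 15.4 and 15.0 TPM in UN, 3.15, 3.07 and 3.15 in UH, 15.6, 16.4 and 23.3 in SN and 12.6, 11.7 and 7.93 in SH libraries. UH libraries were tightly grouped and far below all others. Slc43a2 fell 4.33-fold in unsorted cells (log2 −1.80 ± 0.21, adjusted p = 2.97e-05), and SH cells were above UH cells (1.49 ± 0.21, adjusted p = 0.000168). SH vs SN gave −0.73 ± 0.21, adjusted p = 0.0149. The difference between the responses was called (1.07 ± 0.30, adjusted p = 0.0244), but its adjusted p rose to between 0.0514 and 0.0635 without UN replicate 2 or 3, UH replicate 2, SN replicate 1 or 2, or SH replicate 1 or 2, and its value fell to 0.78 under median-of-ratios scaling.

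Slc43a3 (chr2:84936579-84958509, plus strand) was at 19.2, 3.90 and 4.97 TPM in UN, 2.66, 3.64 and 3.74 in UH, 0.0984, 0.0911 and 0.738 in SN and 0.573, 0.246 and 0.129 in SH libraries. UN replicate 1 lay far above the other UN libraries, and all unsorted libraries exceeded all sorted ones. Slc43a3 was lower in SN vs UN (−2.72 ± 0.43, adjusted p = 0.000521) and in SH vs UH (−1.73 ± 0.43, adjusted p = 0.00698). UH vs UN gave −0.96 ± 0.43, adjusted p = 0.0882, and came to −0.32 (adjusted p = 0.287) without UN replicate 1 and −1.35 (adjusted p = 0.0264) without UN replicate 2, the latter past the threshold. Without UN replicate 1 SN vs UN was −2.08. Slc43a1 (LAT3), 73.0 kb away, was at 1.90, 1.26 and 1.22 TPM in UN, 0.654, 0.665 and 0.829 in UH, 0.218, 0.187 and 0.184 in SN and 0.252, 0.0882 and 0.0899 in SH libraries and was lower in SN vs UN (−1.03 ± 0.12, adjusted p = 8.23e-05), though not past 2-fold without UN replicate 1 (−0.90) or under median-of-ratios scaling (−0.94). SH libraries also lay below UH libraries without overlap (−0.59 ± 0.12, adjusted p = 0.00273), a difference called with a pseudocount of 0.1 (−1.80, adjusted p = 0.00105).

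Of the carriers of family 36, which export amino acids from lysosomes or take them up at the surface, Slc36a4 (PAT4; chr9:15709738-15743361, plus strand) was near 0 in sorted cells. It was at 7.48, 13.0 and 13.2 TPM in UN, 5.66, 6.91 and 10.5 in UH, 0.0221, 0.116 and 0.0463 in SN and 0.0457, 0.0222 and 0 in SH libraries. The unsorted groups overlapped each other, and no sorted library exceeded 0.116 TPM. Slc36a4 was lower in SN vs UN (−3.49 ± 0.23, adjusted p = 6.6e-07) and in SH vs UH (−3.05 ± 0.23, adjusted p = 1.56e-06), and UH vs UN gave −0.49 ± 0.23, adjusted p = 0.102. The other expressed member of the family was called in no comparison.

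Among the cationic carriers, Slc7a2 (CAT2; chr8:40862396-40922308, plus strand), an arginine and lysine carrier of liver and activated macrophages, was at 20.3, 36.8 and 41.1 TPM in UN, 14.6, 19.6 and 29.3 in UH, 9.56, 7.54 and 12.8 in SN and 10.5, 12.2 and 5.06 in SH libraries. Sorted libraries lay below unsorted ones of the same oxygen level without overlap. Slc7a2 was lower in SN vs UN (−1.59 ± 0.35, adjusted p = 0.00446) and in SH vs UH (−1.13 ± 0.35, adjusted p = 0.0219), the latter not past either threshold without SH replicate 3 (−0.79, adjusted p = 0.0878) or UH replicate 3 (−0.88, adjusted p = 0.0826). Slc7a1, with the same substrates, was called in no comparison, so these arginine carriers were at 32.8 TPM (Slc7a2) and 21.8 TPM (Slc7a1) in UN cells but 9.97 and 24.5 TPM in SN cells.

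In family 6, Slc6a19 (B0AT1; chr13:73679745-73704865, minus strand), the neutral amino acid carrier of gut and kidney epithelium, was the 1 member called. It was at 1.94, 0.571 and 0.683 TPM in UN, 1.16, 2.24 and 3.21 in UH, 1.99, 1.65 and 1.84 in SN and 5.83, 6.15 and 4.67 in SH libraries. SH libraries were above all others, which overlapped. Slc6a19 rose in SH vs SN (1.21 ± 0.27, adjusted p = 0.00388) and was higher in SH vs UH (1.08 ± 0.27, adjusted p = 0.00756), the latter not past 2-fold without UH replicate 1 (0.82) or under median-of-ratios scaling (0.93).

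Other genes of amino acid handling were counted from lists of carriers outside these families, enzymes, and response and sensing genes. Of 12 other carriers tested, 0 were called higher and 2 lower in each hypoxia comparison. Of all genes 5.46% were called higher and 11.8% lower in UH vs UN, and 7.47% and 5% in SH vs SN. At an unadjusted p under 0.05 in limma, hypoxic unsorted cells had 2 of the 12 higher and 7 lower. For hypoxic sorted cells the counts were 2 higher and 6 lower. The 2 called lower were Slc25a13 and Slc16a10. Slc25a13, a mitochondrial aspartate-glutamate carrier, gave −1.59 in unsorted and −1.02 in sorted cells. Slc16a10, a carrier of aromatic amino acids, gave −1.15 and −1.42. Slc16a10 was higher in sorted cells in normoxia (1.84 ± 0.14, adjusted p = 2e-06) and in hypoxia (1.57 ± 0.14, adjusted p = 5.34e-06), whereas no member of the families above was called higher in normoxia. In hypoxia the mitochondrial glutamate carrier Slc25a22 was also higher in sorted cells (1.45 ± 0.18, adjusted p = 6.52e-05).

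Of 28 enzymes of amino acid synthesis and use, 1 rose and 7 fell in UH vs UN, where 5.46% of all genes were called higher and 11.8% lower, and 3 rose and 6 fell in SH vs SN, where the shares were 7.47% and 5%. Gls2, a glutaminase that releases glutamate from glutamine, rose in both, from 1.63 ± 0.411 to 78.8 ± 2.82 TPM in unsorted cells (4.93 ± 0.29, adjusted p = 1.67e-07) and from 3.23 ± 0.143 to 36.2 ± 16.2 TPM in sorted cells (3.02 ± 0.29, adjusted p = 1.07e-05). Its rise was smaller in sorted cells, with a called difference between the responses (−1.91, adjusted p = 0.00686 in limma). Gclm (a subunit of the first enzyme of glutathione synthesis), Phgdh and Shmt1 (serine and glycine synthesis) and Got2 (mitochondrial aspartate aminotransferase) fell in both. The branched-chain aminotransferases Bcat1 and Bcat2, which act on substrates of Slc7a5 and Slc43a2, were lower in sorted cells in normoxia (−1.79 and −3.94) and in hypoxia (−2.40 and −2.65). Over the whole list SN vs UN gave 2 enzymes higher and 4 lower, against 3.2% and 7.57% of all genes. SH vs UH gave 4 and 4, against 7.65% and 5.35%.

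Of 16 genes of the amino acid response and of nutrient sensing, 5 rose and 2 fell in UH vs UN (5.46% and 11.8% of all genes), and 7 rose and 1 fell in SH vs SN (7.47% and 5%). Ddit4, Ddit3, Sesn2, Nupr1 and Trib3 rose in both, with Trib3, an ATF4 target, at 2.83 and 3.12, and Atf3 and Chac1 rose in sorted cells. Among the sensing genes Rragb fell in both, by −2.06 in unsorted and −1.10 in sorted cells. Mtor fell in unsorted cells (−1.21), with −0.19 in sorted cells and a called difference between the responses (1.02). The rise of Nupr1 was smaller in sorted cells, also with a called difference (−1.89, adjusted p = 0.0134 in limma). Atf4 itself was at 241 ± 7.35, 404 ± 33.5, 284 ± 27.9 and 405 ± 59.7 TPM in UN, UH, SN and SH cells, with 0.74 ± 0.12, adjusted p = 0.000327 in UH vs UN and 0.50 ± 0.12, adjusted p = 0.00509 in SH vs SN, short of a 2-fold change. Between sorted and unsorted cells 0 of the 16 were called in normoxia, where 3.2% of all genes were called higher and 7.57% lower. At an unadjusted p under 0.05 in limma, 1 was higher and 4 lower there. In hypoxia 0 were called higher and 2 lower, Rragd (−1.01) and Cebpb (−1.13), against 7.65% and 5.35% of all genes.

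Blood cell markers also moved with hypoxia, through Cd68, a lysosomal protein of macrophages, at 3.09, 13.4, 7.88 and 54.0 TPM on average in UN, UH, SN and SH cells, and Csf1r, a macrophage growth factor receptor, at 2.91, 7.21, 3.55 and 5.83 TPM. Hypoxic libraries exceeded normoxic ones of the same cells without overlap for Cd68 and for Csf1r, whereas Ptprc, which all leukocytes express, stayed at or below 0.121 TPM in every library. Exons of Slc3a1, Slc6a6, Slc7a2, Slc7a10, Slc38a10 and Slc43a2 overlap genes on the opposite strand in GENCODE M21, and the libraries were made with a stranded kit. No named member shares exons with a gene on its own strand.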

How the data were processed

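Total RNA from 12 samples of BN1 cells was converted to libraries with a stranded mRNA kit and sequenced in paired ends. The authors processed the reads with nf-core/rnaseq 3.12.0 and deposited gene-level TPM, which sum to 1000000 in each library and are not otherwise scaled between libraries. The genome build is mm10 per the submitters' processing notes, and the annotation release is not given in the sources used here. The read depth cannot be recovered from TPM, so precision rests on the spread of 3 libraries per group.

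Genes with a mean of at least 0.1 TPM over the 12 libraries were transformed as log2(TPM + 1) and analysed in R 4.3.3 with limma 3.58.1, as 1 mean per group with moderated variances that followed a trend with expression. The study itself tested read counts with DESeq2, which were not used here. Groups were taken from the sample labels, and the oxygen and time values from the study's methods. Contrasts were UH vs UN, SH vs SN, SN vs UN, SH vs UH and the difference between the hypoxia responses. UH vs UN and SN vs UN share the UN libraries, and each other pair with a common group shares that group, so calls were not tested for overlap. The Benjamini-Hochberg adjustment ran over all 18909 genes tested within a contrast. The fit was tested on simulated data.

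Values are given for members called in a contrast that reach a mean of 1 TPM in a group, the 10 members with the highest mean, and Slc3a1, Slc3a2, Slc7a5, Slc7a11, Slc1a5 and Slc38a2, 26 in all. The members and the gene lists were chosen with earlier results of these data known. Of the lists, 16 of 18 response and sensing genes, 29 of 29 enzymes and 18 of 19 other carriers were found by symbol. Alternatives were a pseudocount of 0.1, no filter, a filter at 1 TPM, median-of-ratios scaling, a replicate block, moderation without a trend, and leaving out each replicate. Coordinates are from GENCODE M21 (GRCm38), in which all 60 members were found by gene ID. Python 3.11.15 with pandas 2.3.3, numpy 2.4.6 and matplotlib 3.10.9 served for the rest.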

Additional observations from a re-analysis of the deposited data

Results flagged for a closer look

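For 7 transporters the response to hypoxia differed between sorted and unsorted cells by the test of the difference itself in limma, beyond a 2-fold difference. The response of sorted cells exceeded that of unsorted cells by 3.27 on the log2 scale for Slc1a3, 1.63 for Slc1a4, 1.50 for Slc7a5, 1.08 for Slc38a6 and 1.07 for Slc43a2. It was lower by a difference of −1.54 for Slc1a6 and −1.38 for Slc38a2. Slc1a3 was at or below 0.320 TPM in all sorted libraries, where no further fall could be measured on log2(TPM + 1), so its value restates the fall in unsorted cells. The value of Slc1a6 likewise rests on sorted levels of at most 0.247 TPM and was not called with a pseudocount of 0.1 (−1.34, adjusted p = 0.167). Without UN replicate 1 the difference for Slc7a10 also passed the test (2.37, adjusted p = 0.000634, against 1.71 and 0.0767 with it). Slc38a1 (−0.976, adjusted p = 0.0165 in limma) and Slc38a4 (−0.957, adjusted p = 0.0183) fell short of the fold threshold alone. Both were called under median-of-ratios scaling (−1.295 and −1.218) and without some single libraries, and Slc38a1 also with a pseudocount of 0.1 (−1.245). Slc38a4 was at or below 0.618 TPM in sorted libraries. For Slc1a3 and Slc43a2 the difference came with a fall in unsorted cells, for Slc1a4 and Slc7a5 with a rise in sorted cells, and for Slc1a6 with a rise in unsorted cells. Slc1a3, Slc1a4, Slc7a5 and Slc38a2 kept this call under all alternatives in which they were fitted, and the calls of Slc1a6, Slc38a6 and Slc43a2 were lost under at least 1.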

How the results depend on the processing

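Of 40 calls of transporters over the 5 contrasts, none changed sign under any alternative, 30 held under every alternative in which the gene was fitted and 10 were lost under at least 1. Of 90 contrasts of named members that were not called, 20 changed sign under at least 1 alternative. A pseudocount of 0.1 gave 7 in place of 3 fallers in UH vs UN, 8 in place of 4 risers and 3 in place of 1 faller in SH vs SN, and 17 in place of 10 lower genes in SN vs UN. Median-of-ratios scaling gave 5 in place of 3 risers in UH vs UN, 2 in place of 4 higher genes in SH vs UH, and 3 positive and 4 negative in place of 5 and 2 differences between the responses. Leaving out 1 library gave 3 to 5 fallers in UH vs UN, with 5 without UN replicate 1, UN replicate 2 or UH replicate 3. It gave 0 to 2 fallers in SH vs SN, with 0 without SH replicate 3 and 2 without SN replicate 3 or SH replicate 2. Negative differences between the responses numbered 1 to 4, with 1 without UN replicate 2 and 4 without UH replicate 1 or SH replicate 2. The cause of these changes was not tested. Leaving out the filter or the trend changed no call of a transporter, and neither did the replicate block. Same-numbered libraries deviated from their group means with correlations of −0.063 to 0.141 across genes, so the numbers were not treated as pairs. The unknown depth limits statements on members under 1 TPM, whose values of 0 cannot be told from low levels.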
